A study of Bos taurus with 10 samples.

Results

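The mitochondrial ribosome and the factors that serve mitochondrial translation were followed in bovine udder tissue, in mammary glands next to an infected gland and in glands of healthy cows. Members were chosen by gene symbol alone: all probe sets whose only symbol starts with MRPL or MRPS followed by a digit, together with DAP3, TUFM, TSFM, GFM1, GFM2, MTIF2, MTIF3, MTRF1, MTRF1L, MRRF, TFAM, TFB1M and TFB2M. This gave 101 of 24016 probe sets, which stood for 78 of the 9156 genes that had a probe set with 1 symbol. MTIF3 and TFAM had no probe set under that symbol in the annotation used and were not analysed here. A probe set is a group of short probes on the array designed against 1 transcript.

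The neighboring group held 5 first-lactation German Holstein Frisian cows in mid lactation, synchronized in oestrus and milked out with oxytocin, in which 1 gland of the udder had received 500 CFU of E. coli 1303, a bovine mastitis isolate, in 2 ml of saline 24 h before slaughter. Tissue came from other glands of the same udder, which had received no bacteria. Most of these arrays pooled, per cow, an untreated gland with one that had received saline, and neighboring 4 held a single untreated gland. The healthy group held 5 cows kept and synchronized in the same way, with neither bacteria nor saline given to any gland. Their samples also pooled glands of the same cow. RNA of each cow was hybridized to an Affymetrix bovine array, so that a replicate is a cow. Values are RMA expression values on the log2 scale, on which a difference of 1 is a doubling. A value for whole tissue cannot tell apart fewer cells of a type and less RNA per cell.

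Mitochondria keep a small genome that encodes subunits of the respiratory chain and of ATP synthase, the ribosomal RNAs and a set of tRNAs. All proteins of the ribosome that translates it are encoded in the nucleus, made in the cytosol and imported. About this ribosome it is known that part of its proteins descend from bacterial ribosomal proteins, while many others were gained in mitochondria and have no bacterial counterpart. In the lactating gland, secretory epithelial cells draw on mitochondrial ATP for the synthesis of milk protein, lactose and fat.

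Probe sets in the lowest 40% by mean value (below 5.71) were left out of the tests, which kept 14409 probe sets and 93 of the 101 member probe sets, for 77 of the 78 genes. The comparison used 4 arrays per group. It followed the study in leaving out neighboring 5, whose whole profile had clustered with the healthy cows, and healthy 3, a technical outlier. Because neighboring 5 was set aside on these same expression values, the counts over all members are also given with all 10 arrays. The same was done for most of the classes and lists. Correlations between arrays were 0.916 to 0.981 over the kept probe sets, and array medians were 6.25 to 6.28. Luminal markers matched the labelled tissue: CSN2 and LALBA, which encode the milk proteins beta-casein and alpha-lactalbumin, were at 14.20 to 14.86 on all 10 arrays.

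Genes of the mitochondrial ribosome and its factors were more often higher in neighboring glands than lower. With limma and Benjamini-Hochberg adjustment over all kept probe sets, 33 of the 93 member probe sets were higher at an adjusted p under 0.05, which is 35.5%, where 17.7% of all kept probe sets were higher. Only 1 member probe set was lower, for MRPS28, where 12.0% of all kept probe sets were lower, and 59 did not pass. The median difference was 0.26 over the member probe sets and 0.03 over all kept probe sets, and 79.6% of member probe sets lay above 0, as did 52.8% of all. The values of both groups did not overlap on the 8 arrays for 26 member probe sets that were higher in neighboring glands (28.0%, against 18.4% of all kept probe sets). On all 10 arrays, 8 of the 93 member probe sets were higher with no overlap of the groups, as were 3.8% of all kept probe sets.

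When each gene was represented by its brightest kept probe set, 29 of 77 genes were higher (37.7%, against 20.2% of all 7055 genes), MRPS28 was lower (11.5% of all genes were), and 47 did not pass. Of the 77 genes, 62 had a difference above 0, as did 56.2% of all genes. The changes were small. The 29 genes were higher by 1.21-fold to 1.87-fold, and 0 member probe sets reached the threshold of the study, an adjusted p under 0.01 with a more than 2-fold change, which 2.76% of all kept probe sets reached. At an unadjusted p under 0.05 stood 42 member probe sets, of which 41 were higher and 1 lower. These are 44.1% and 1.08% of the members, where 24.4% and 18.0% of all kept probe sets were higher and lower at that p. With all 10 arrays, 9 of the 77 genes were higher (8.26% of all genes were) and 0 were lower (5.02% of all genes were): MRPS35, MRPL39, MRPS22, MRPL46, MRPS5, MRPL3, DAP3, MRPL9 and MRPS2. Of the 93 probe sets, 11 were higher and 0 lower with all 10 arrays (7.16% and 5.37% of all kept probe sets were). All 29 genes kept a difference above 0 in that fit, which holds the 8 arrays that chose them.

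**Figure D1:**
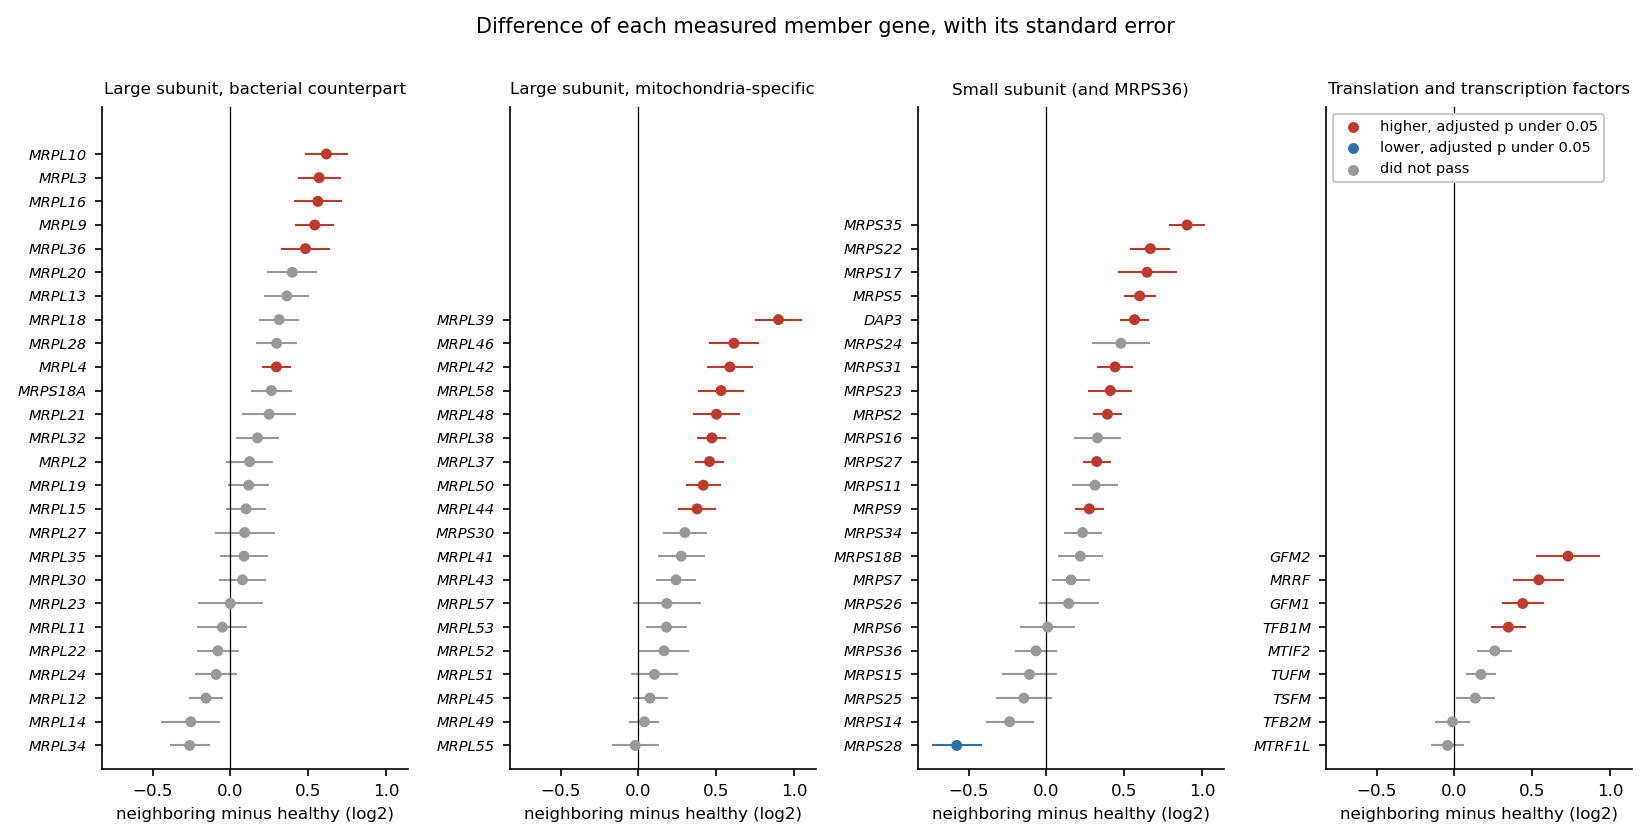
Difference between neighboring and healthy glands of each of the 77 measured genes (horizontal axis, log2), with its limma standard error, 4 arrays per group, in 4 panels by the place and descent of the protein. MRPS18A stands in the first panel. Red points were higher and the blue point lower at an adjusted p under 0.05, grey points did not pass: 62 of 77 genes lie above 0.

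Proteins of the large subunit, which joins the amino acids, were measured for 45 genes. Of these, 15 were higher (33.3%, against 20.2% of all genes) and 0 lower, with a median difference of 0.25. With all 10 arrays, only 4 of the 45 were higher, where 8.26% of all genes were. In the main test, 9 of the 19 without a bacterial counterpart were higher, with a median of 0.30. Among the 25 with one, 6 were higher, with a median of 0.12, and this share of 24.0% is near that of all genes. No test of the difference between these classes was made. MRPS30 and MRPS18A were counted here, as both proteins sit in the large subunit in spite of their names, and MRPS36, now assigned to a metabolic enzyme complex, was counted in neither subunit (-0.07 ± 0.13).

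MRPL39, a protein gained in mitochondria, had the largest difference of the large subunit. It was at 8.60, 8.83, 9.24, 9.29 and 8.33 on neighboring arrays 1 to 5, against 8.21, 8.05, 7.97, 8.04 and 8.05 on healthy arrays 1 to 5. All 5 neighboring arrays lay above all 5 healthy arrays, and neighboring 5 was the closest to the healthy ones. The difference was 0.90 ± 0.15 (SE, n = 4 per group, adjusted p = 0.00232), and 0.79 with all 10 arrays (adjusted p = 0.0246). Its second kept probe set differed by 0.97 ± 0.17 (adjusted p = 0.00262), with the same separation of the groups.

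MRPL46, also without a bacterial counterpart, was at 6.17, 6.69, 6.90, 6.97 and 6.21 in neighboring glands, against 6.14, 6.00, 5.50, 6.03 and 6.11 in healthy glands. The groups were separate on all 10 arrays, but neighboring 1 and neighboring 5 lay within 0.1 of the highest healthy value. The difference was 0.61 ± 0.16 (adjusted p = 0.0173, and 0.0519 without neighboring 3). MRPL42 showed a similar order, with 8.08, 8.60, 8.76, 8.74 and 8.01 on the neighboring arrays and 8.08, 7.87, 6.64, 7.89 and 8.0 on the healthy arrays. Here neighboring 1 stood level with the highest healthy array and healthy 3 was far below the rest. The difference of 0.59 ± 0.15 without that array had an adjusted p of 0.0152, and with all 10 arrays the adjusted p was 0.0799. A second, dimmer MRPL46 probe set, below the filter, had the opposite sign, with -0.25 ± 0.12 (adjusted p = 0.148 with no filter).

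Of the other mitochondria-specific large-subunit genes, MRPL37 and MRPL38 were the steadiest. MRPL38 was at 7.84, 7.91, 7.87, 7.85 and 7.35 in neighboring glands, against 7.49, 7.40, 7.44, 7.21 and 7.47 in healthy glands. Neighboring arrays 1 to 4 lay close together above every healthy array, and neighboring 5 lay inside the healthy range. The difference was 0.47 ± 0.09 (adjusted p = 0.00509), and that of MRPL37 was 0.46 ± 0.09 (adjusted p = 0.00614). MRPL58, which is both a ribosomal protein and a peptidyl-tRNA hydrolase that frees stalled ribosomes, was higher by 0.53 ± 0.15, with an adjusted p of 0.0239. MRPL48, MRPL50 and MRPL44, the last a relative of the RNA-cutting enzyme ribonuclease III, were higher by 0.50, 0.42 and 0.38. The groups of MRPL58, MRPL48 and MRPL44 overlapped on the 8 arrays. These 3 genes passed in 4, 3 and 2 of the 8 fits that left out 1 array. The other 10 mitochondria-specific genes of the large subunit did not pass.

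Among large-subunit proteins with a bacterial counterpart, MRPL10, which in bacteria anchors the stalk that recruits translation factors, was at 8.64, 9.01, 9.09, 8.96 and 8.37 in neighboring glands, against 8.51, 8.5, 8.41, 8.17 and 8.06 in healthy glands. Neighboring arrays 1 to 4 were above all healthy arrays, while neighboring 5 fell within them. The difference was 0.62 ± 0.14 (adjusted p = 0.00902, and 0.053 with all 10 arrays). The gene of the stalk protein itself, MRPL12, had a difference of -0.16 ± 0.11 (adjusted p = 0.293).

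MRPL3, whose bacterial counterpart lies near the peptidyl transferase center, was at 8.93, 9.06, 9.35, 9.39 and 8.76 in neighboring glands, against 8.74, 8.81, 8.68, 8.44 and 8.46 in healthy glands. Only neighboring 5 lay within the healthy range. The difference was 0.57 ± 0.14 (adjusted p = 0.0122, and 0.044 with all 10 arrays). MRPL16, MRPL9, MRPL36 and MRPL4 were higher by 0.56, 0.54, 0.48 and 0.30. These genes passed in 6, 8, 1 and 3 of the 8 fits that left out 1 array, and the groups of MRPL36 overlapped. The lowest differences in the subunit, -0.26 ± 0.13 for MRPL34 and -0.25 ± 0.19 for MRPL14, had adjusted p-values of 0.143 and 0.328.

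The small subunit, which binds the mRNA and holds the decoding site, was measured for 22 genes. Of these, 10 were higher (45.5%, against 20.2% of all genes) and 1 was lower, with a median difference of 0.32. Among the 9 mitochondria-specific proteins 6 were higher (median 0.41), and among the 12 with a bacterial counterpart 4 were higher and 1 was lower (median 0.29). Over both subunits together, 15 of 28 mitochondria-specific genes and 10 of 37 genes with a bacterial counterpart were higher, with medians of 0.35 and 0.17. With all 10 arrays, 5 of the 28 and 4 of the 37 were higher, with medians of 0.37 and 0.25, where 8.26% of all genes were higher. Of the 22 genes of the small subunit, 5 were higher and 0 lower in that fit. Without neighboring 1, the counts were 22 of the 28 and 20 of the 37, where 1500 of all 7055 genes were higher.

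MRPS35, a mitochondria-specific protein of the small subunit, had the largest difference of all member genes by their brightest probe set. It was at 8.41, 7.97, 8.21, 8.26 and 7.67 on neighboring arrays 1 to 5, against 7.29, 7.19, 7.53, 7.47 and 7.30 on healthy arrays 1 to 5. All neighboring arrays lay above all healthy ones, with neighboring 5 the lowest of its group and healthy 3 the highest of its own. The difference was 0.90 ± 0.11, a 1.87-fold higher value (adjusted p = 0.000594, and 0.0196 with all 10 arrays). Its second probe set differed by 0.59 ± 0.12 (adjusted p = 0.00665).

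MRPS22, another protein without a bacterial counterpart, was at 7.34, 7.40, 7.70, 7.64 and 6.98 in neighboring glands, against 6.91, 7.02, 6.58, 6.56 and 6.91 in healthy glands. Neighboring 5 alone fell within the healthy range. The difference was 0.67 ± 0.13 (adjusted p = 0.00426, and 0.0294 with all 10 arrays). DAP3, a GTP-binding protein of the small subunit first described in apoptosis, was at 7.48, 7.70, 7.64, 7.74 and 7.2 in neighboring glands, against 7.03, 6.98, 7.36, 7.16 and 7.13 in healthy glands. Again neighboring arrays 1 to 4 were above every healthy array and neighboring 5 was among them. The difference was 0.57 ± 0.10 (adjusted p = 0.00237, and 0.0415 with all 10 arrays).

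MRPS5, whose bacterial counterpart sits where mRNA enters the ribosome, was at 7.39, 7.42, 7.66, 7.34 and 6.95 in neighboring glands, against 6.91, 6.97, 7.04, 6.77 and 6.79 in healthy glands. The groups were separate apart from neighboring 5. The difference was 0.60 ± 0.10 (adjusted p = 0.00253, and 0.0385 with all 10 arrays). MRPS17, MRPS31, MRPS23, MRPS2, MRPS27, a protein with RNA-binding repeats, and MRPS9 were higher by 0.65, 0.44, 0.41, 0.39, 0.32 and 0.28. MRPS17 and MRPS23 had overlapping groups, as neighboring 1 was at 7.60 and 9.75, inside the healthy values, and MRPS23 lay just under the threshold with an adjusted p of 0.0499. MRPS17, MRPS31, MRPS23, MRPS2, MRPS27 and MRPS9 passed in 2, 6, 1, 8, 6 and 1 of the 8 fits that left out 1 array.

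MRPS28 was the exception in direction. It was at 5.49, 5.98, 6.29, 5.87 and 6.35 in neighboring glands, against 6.37, 6.5, 5.82, 6.34 and 6.73 in healthy glands. Neighboring arrays 1 to 4 lay below the 4 healthy arrays of the test, while healthy 3 stood at the level of the neighboring ones. The difference was -0.58 ± 0.16 (adjusted p = 0.0235), but the adjusted p was 0.216 with all 10 arrays and 0.0637 without healthy 5. A second, dimmer MRPS28 probe set, below the filter, differed by -0.70 ± 0.13 (adjusted p = 0.00374 with no filter, where 9.21% of all probe sets were lower).

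**Figure D2:**
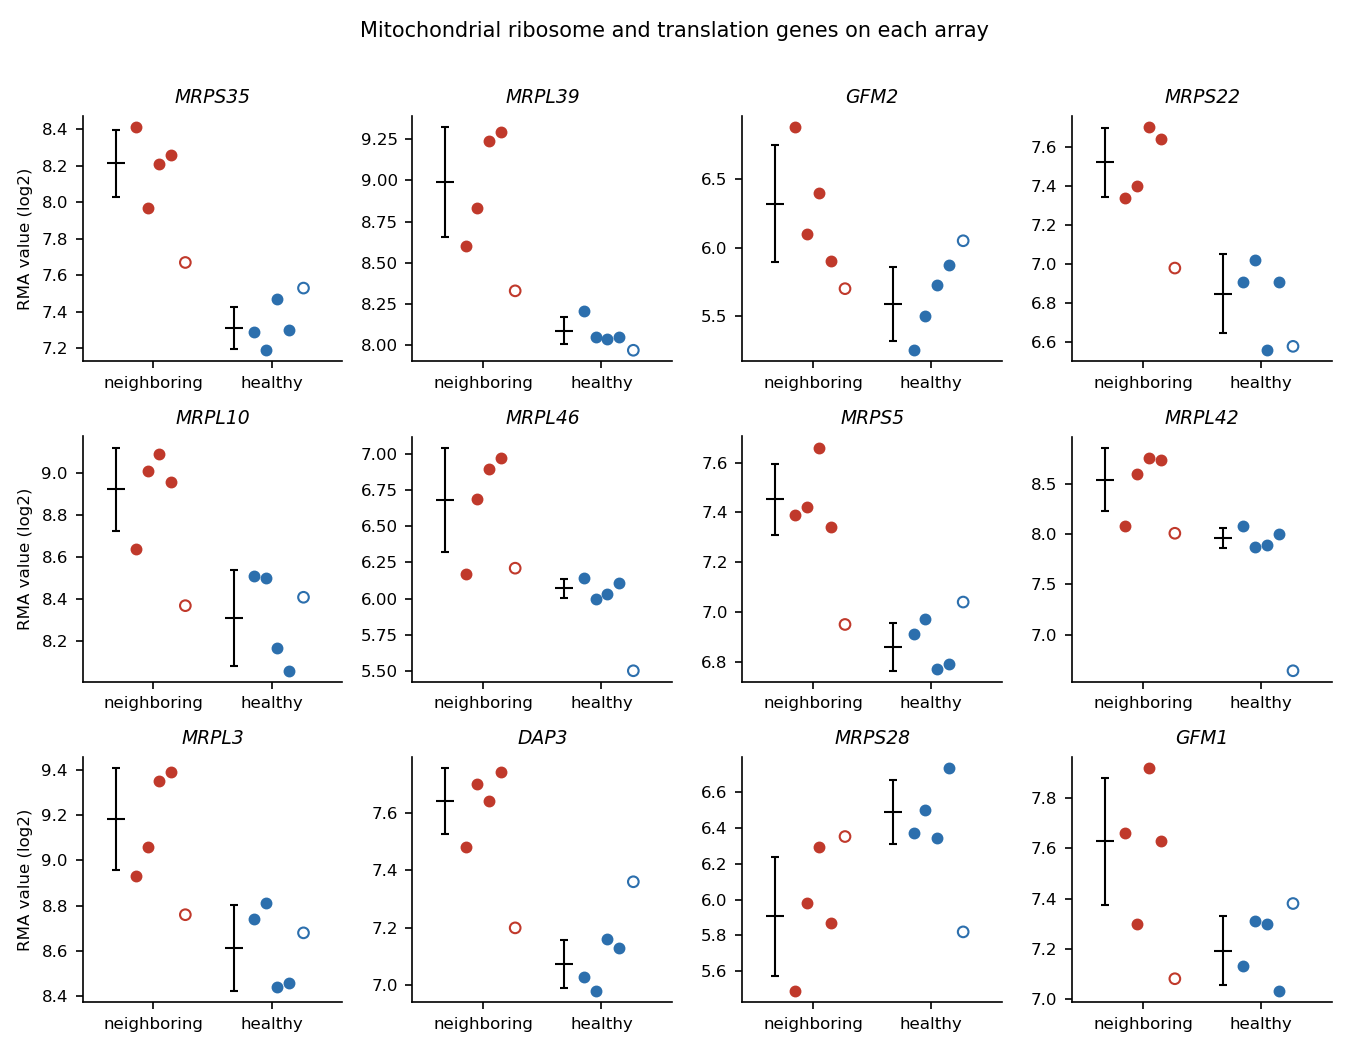
RMA values (vertical axes, log2, each with its own range) of the 10 genes with the largest positive differences among the members past the test whose groups did not overlap on the 8 arrays, of MRPS28 and of GFM1, with neighboring glands left and healthy glands right. Filled points are the 4 arrays of each group in the test, open points are neighboring 5 and healthy 3, and black bars are the mean and SD over the 4 filled points. The open neighboring point lies at or near the lower edge of its group in all panels but that of MRPS28, and in those of MRPL46 and MRPL42 it is level with neighboring 1.

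Translation factors, which start, drive, end and recycle rounds of protein synthesis, were measured for 7 genes. Of these, 3 were higher (42.9%, against 20.2% of all genes) and 0 lower (median 0.26). With all 10 arrays 0 of the 7 were higher, where 8.26% of all genes were. Both genes of ribosome recycling were among the 3 of the main test. GFM2, which together with the recycling factor splits the ribosome after termination, was at 6.88, 6.10, 6.40, 5.90 and 5.70 in neighboring glands, against 5.25, 5.50, 6.05, 5.73 and 5.87 in healthy glands. The groups were separate on the 8 arrays of the test but overlapped on all 10, and neighboring 1 was the highest array. The difference was 0.73 ± 0.21 (adjusted p = 0.0238, 0.123 with all 10 arrays and 0.063 without healthy 1). MRRF, the recycling factor, was at 6.86, 7.21, 7.64, 7.05 and 6.63 in neighboring glands, against 6.52, 6.76, 6.68, 6.46 and 6.84 in healthy glands. Neighboring 1 and healthy 5 almost met, and the difference was 0.54 ± 0.16 (adjusted p = 0.0317, and 0.105 with all 10 arrays).

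GFM1, the translocase of elongation, was at 7.66, 7.30, 7.92, 7.63 and 7.08 in neighboring glands, against 7.13, 7.31, 7.38, 7.30 and 7.03 in healthy glands. Neighboring 2 and 5 lay within the healthy range. The difference was 0.44 ± 0.13 (adjusted p = 0.0328, 0.196 with all 10 arrays and 0.0561 without neighboring 1). TUFM, which brings charged tRNA to the ribosome, and TSFM, which recharges TUFM with GTP, had differences of 0.17 ± 0.10 (adjusted p = 0.214) and 0.13 ± 0.12 (adjusted p = 0.425). MTIF2, the initiation factor that places the first tRNA, had 0.26 ± 0.11 (adjusted p = 0.103).

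The release factor family was split. MTRF1L, which ends translation at stop codons, had a difference of -0.04 ± 0.11 in its brightest probe set and 0.30 ± 0.15 in a dimmer one (adjusted p = 0.778 and 0.161). MTRF1 lay wholly below the filter. Without the filter its 2 probe sets were higher by 0.69 ± 0.11 and 0.52 ± 0.12 (adjusted p = 0.0024 and 0.0109), where 11.1% of all 24016 probe sets were higher. The brighter of them was at 6.24, 6.09, 5.94, 5.86 and 5.44 in neighboring glands, against 5.21, 5.28, 5.71, 5.47 and 5.41 in healthy glands, with only neighboring 5 inside the healthy range.

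Of the 2 relatives of rRNA methyltransferases among the members, TFB1M methylates the RNA of the small subunit, and TFB2M melts the promoter when mitochondrial transcription starts. TFB1M was higher in all 3 of its probe sets, by 0.35 ± 0.11, 0.41 ± 0.12 and 0.50 ± 0.12 (adjusted p = 0.0404, 0.0257 and 0.0122). The brightest was at 7.21, 6.92, 6.90, 7.19 and 6.56 in neighboring glands, against 6.64, 6.80, 6.94, 6.82 and 6.56 in healthy glands. Healthy 3 and neighboring 5 lay inside the range of the other group, and the adjusted p of this probe set was 0.297 with all 10 arrays and 0.0743 without neighboring 1. TFB2M had differences of -0.01 ± 0.11 and 0.08 ± 0.12 in its 2 probe sets (adjusted p = 0.944 and 0.628).

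For 14 member genes more than 1 probe set passed the filter, and these were compared as a check within genes. For 9 of them all probe sets had the same sign. All probe sets were higher for 3 genes (MRPL39, MRPS35 and TFB1M), and some were higher for 2 more, MRPS2 and MRPS9. MRPL23, MRPS2, MRPS34, MTRF1L and TFB2M had probe sets of opposite sign. In MRPS2, the brighter probe set was higher by 0.39 ± 0.09 while the dimmer one, at 5.51 to 6.02 on all arrays, differed by -0.12 ± 0.13.

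The members did not move to the same extent on each neighboring array. As the median deviation from the mean of healthy arrays 1, 2, 4 and 5, the 93 probe sets stood at -0.09, 0.32, 0.41, 0.37 and 0.05 on neighboring arrays 1 to 5, against 0.03, 0.01, -0.33, -0.09 and 0.05 on healthy arrays 1 to 5. Neighboring 2, 3 and 4 were thus above all other arrays, and neighboring 1 and 5 were within the healthy range. Neighboring 1 was the lowest of the 4 neighboring arrays in the test for 81.7% of the members, and for 29.1% of all kept probe sets. The same array was the lowest for 90.2% of probe sets of cytosolic ribosomal proteins and for 81.1% of those of the respiratory chain and ATP synthase. Healthy 3 was the lowest of 5 healthy arrays for 58.1% of the members, against 19.6% of all kept probe sets.

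Over the 33 member probe sets that were higher, neighboring 1 had a median of 0.31, compared with 0.53, 0.72 and 0.65 on neighboring 2, 3 and 4 and 0.07 on neighboring 5. Without neighboring 1, 45 of 77 genes, 27 of the 29 among them, and 53 of 93 probe sets were higher. In that fit 1500 of all 7055 genes and 17.7% of all kept probe sets were higher. Without neighboring 3, 13 of the 29 genes were still higher, without neighboring 4, 18, without healthy 1, 19, and without healthy 4, 17. The shares of all genes in these fits are not given here. Of the 29 genes, 12 passed in each of the 8 fits that left out 1 array: MRPS35, MRPL39, MRPS22, MRPL10, MRPS5, MRPL42, MRPL3, DAP3, MRPL9, MRPL38, MRPL37 and MRPS2. The matching share of all called genes is not given either. For 24 of the 29, neighboring 5 was below all the other neighboring arrays. The 29 were chosen as high on the other neighboring arrays, so this is in part built into the choice, and no share over all genes is given. With neighboring 5 put back and healthy 3 left out, 5 genes were higher, and of the 93 probe sets 7 were higher and 0 lower (5.16% and 3.1% of all kept probe sets were).

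**Figure D3:**
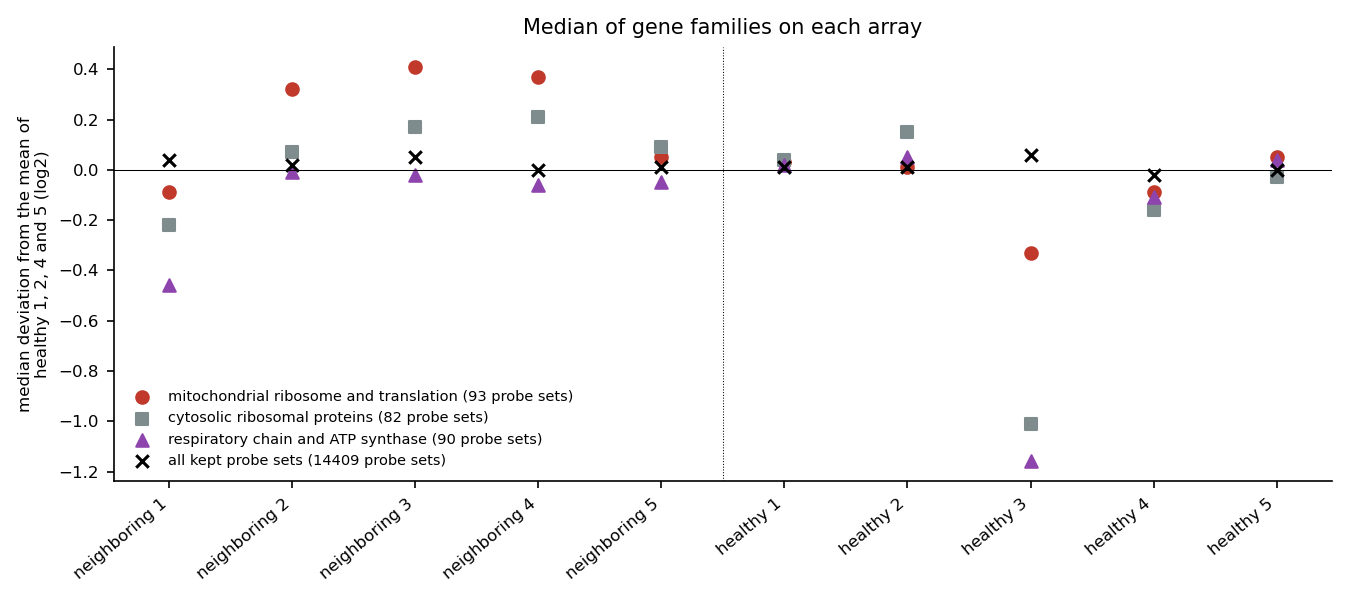
Median deviation (log2, vertical axis) of 4 sets of kept probe sets from the mean of healthy arrays 1, 2, 4 and 5, on each of the 10 arrays, with the 5 neighboring arrays left of the dotted line and the 5 healthy arrays right of it. Member probe sets lie highest on neighboring 2, 3 and 4 (0.32 to 0.41), while ribosomal and respiratory genes lie lowest on neighboring 1 and healthy 3.

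The other genes of mitochondrial gene expression were taken from lists by role. In the list of proteins that assemble the mitochondrial ribosome or modify its RNA, 5 of 17 genes were higher (29.4%, against 20.2% of all genes), 0 were lower and the median was 0.15, against 0.06 over all genes. FASTKD2, an RNA-binding protein needed for the large subunit, was higher by 0.56 ± 0.09 (adjusted p = 0.00179), and NGRN, MTERF3, AFG3L2 and MTERF4 by 0.50, 0.50, 0.33 and 0.32. PTCD3, a small-subunit protein under another symbol, was higher by 0.44 ± 0.11, as the only one of 4 such genes. OXA1L, which inserts newly made proteins into the inner membrane, was higher by 0.57 ± 0.12 (adjusted p = 0.00772). Of 8 genes for translational activation, rescue and insertion it and MTERF3 passed (25.0%).

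Of the enzymes that charge mitochondrial tRNAs, 6 of 17 were higher (35.3%) and 0 lower (median 0.20). GARS1, the glycyl-tRNA synthetase that serves both cytosol and mitochondria, was at 12.07, 11.68, 11.59, 11.53 and 10.14 in neighboring glands, against 9.83, 9.50, 10.14, 9.44 and 9.90 in healthy glands. Neighboring arrays 1 to 4 stood far above all healthy arrays, and neighboring 5 equalled the highest of them. The difference was 2.06 ± 0.15 (adjusted p = 4.7e-05). The synthetases that serve mitochondria alone, HARS2, RARS2, WARS2 and TARS2, were higher by 0.53, 0.50, 0.45 and 0.36, and MTFMT, which formylates the initiator tRNA, by 0.55. In RNA processing and modification, 6 of 18 genes were higher (33.3%) and 0 lower (median 0.14). TRNT1, which adds the CCA end to tRNAs, was higher by 0.92 ± 0.11, CDK5RAP1 by 0.74 and MTPAP, the mitochondrial poly(A) polymerase, by 0.50. Among genes of mitochondrial DNA replication and transcription, TEFM and RNASEH1 were higher, by 0.43 and 0.35, of 7 measured (28.6%). All these shares are read against the 20.2% of all genes that were higher, and the smaller lists lie close to it. These lists overlap in 1 gene, MTERF3. With all 10 arrays 1 of the 17 assembly genes, 2 of the 17 charging genes and 3 of the 18 processing genes were higher, where 8.26% of all genes were. Of the 8 activation, rescue and insertion genes 1 was higher in that fit, and of the 7 replication and transcription genes 0.

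Mitochondrial chaperones and proteases had 5 of 11 genes higher (45.5%) and 0 lower (median 0.23). With all 10 arrays, 3 of the 11 were higher, where 8.26% of all genes were. HSPD1, the mitochondrial chaperonin, was at 12.22, 12.13, 12.34, 12.43 and 10.72 in neighboring glands, against 10.53, 10.59, 10.94, 11.22 and 10.46 in healthy glands. The groups were separate except for neighboring 5, and the difference was 1.58 ± 0.16 (adjusted p = 0.000254). HSPA9, the import motor chaperone, HSPE1, the partner of HSPD1, and the co-chaperones DNAJA3 and GRPEL1 were higher by 1.21, 0.97, 0.73 and 0.35.

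The 9 regulators of mitochondrial gene expression went in both directions, with 2 higher and 2 lower (22.2% each). ATF5, a transcription factor of the mitochondrial stress response, was at 10.69, 11.04, 11.29, 11.23 and 9.54 in neighboring glands, against 8.38, 8.25, 8.64, 8.11 and 8.21 in healthy glands. All neighboring arrays were above all healthy ones, and the difference was 2.83 ± 0.14 (adjusted p = 6e-06). ATF4, which acts in the integrated stress response, was higher by 0.91 ± 0.14. The coactivators of mitochondrial biogenesis were lower: PPARGC1A was at 6.58, 6.47, 6.35, 6.35 and 6.81 in neighboring glands, against 7.21, 7.05, 7.31, 7.01 and 7.09 in healthy glands. No neighboring value reached a healthy one, and the difference was -0.65 ± 0.10 (adjusted p = 0.00119), with -0.80 ± 0.20 for PPRC1 (adjusted p = 0.014). NRF1, a nuclear activator of mitochondrial genes, had -0.12 ± 0.12 (adjusted p = 0.479), and MYC, which drives ribosome synthesis, 0.56 ± 0.20 (adjusted p = 0.0541).

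The cytosolic ribosome and the respiratory chain were set beside the members. Of 62 measured genes of cytosolic ribosomal proteins, 0 were higher and 0 lower in the limma test, with a median difference of 0.07, and 1 had an unadjusted p under 0.05. Their median was 0.29 with all 10 arrays, as was that of the member genes in that fit, and 0.17 without neighboring 1, with 0 and 1 genes higher. Of 79 genes of the respiratory chain and ATP synthase encoded in the nucleus, 2 were higher and 12 lower, with a median of -0.17. The 12 are 15.2% of the list, where 11.5% of all genes were lower. UQCRC2, a core subunit of complex III, and ATP5F1B, the catalytic subunit of ATP synthase, were higher by 0.34 and 0.28, and COX6C, a subunit of cytochrome c oxidase, NDUFA3, NDUFB7, NDUFS8 and NDUFS1 had differences of -0.64, -0.60, -0.60, -0.54 and -0.50. This direction was not stable. With all 10 arrays the median was 0.10, with 0 higher and 2 lower, and without neighboring 1 the median was -0.01, with 4 higher and 12 lower. The median of the member genes stayed above 0 in the same fits, at 0.26 with 8 arrays, 0.29 with all 10 and 0.35 without neighboring 1.

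**Figure D4:**
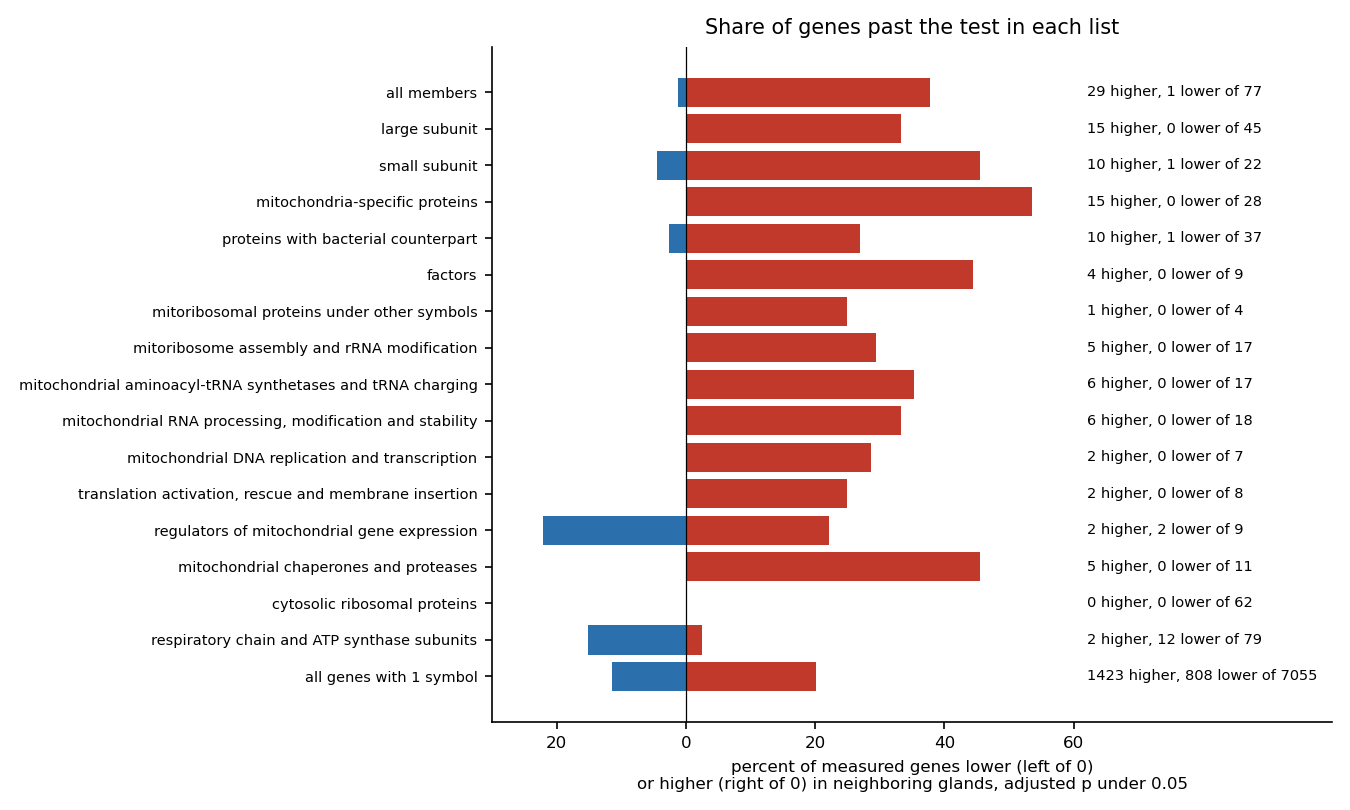
Percent of the measured genes of each list that were higher (red, right of 0) or lower (blue, left of 0) in neighboring glands at an adjusted p under 0.05, with the counts at the right. The members (37.7% higher, 1.3% lower) are followed by their classes, the lists of related genes and, at the bottom, all 7055 genes (20.2% higher, 11.5% lower).

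Markers of several cell types in the tissue moved with the groups. The counts below stand beside 20.2% of all genes higher and 11.5% lower. Of luminal epithelial markers, 2 of 6 were higher (KRT19 and EPCAM). KRT18, CSN2, ELF5 and LALBA did not pass, with differences of 0.77, 0.09, -0.11 and -0.09. The mean log2 level over the list was 11.93 to 12.41 on neighboring arrays and 11.70 to 12.03 on healthy arrays. Myoepithelial markers were lower in 3 of 6 genes, with mean levels of 8.67 to 9.22 in neighboring glands and 9.34 to 9.78 in healthy glands. Fibroblast markers were lower in 3 of 6 and higher in 1, at 8.81 to 9.58 in neighboring glands and 9.72 to 10.21 in healthy glands. Macrophage markers were lower in 2 of 4, at 7.61 to 8.20 in neighboring glands and 8.43 to 8.70 in healthy glands. T cell markers were lower in 3 of 4, at 6.05 to 7.18 in neighboring glands and 6.78 to 7.19 in healthy glands. The adipocyte marker FABP4, the only one of its list with a kept probe set, had a difference of -1.10 ± 0.15 (adjusted p = 0.000772), at 11.29 to 12.84 in neighboring glands and 11.75 to 13.02 in healthy glands. None of 3 endothelial markers passed, with differences of 0.49 for PECAM1, -0.16 for CDH5 and -0.42 for TEK, and the plasma cell marker JCHAIN had -0.37 ± 0.28 (adjusted p = 0.341). With all 10 arrays, 1 luminal and 1 fibroblast marker were higher, where 8.26% of all genes were. In that fit 2 myoepithelial, 4 fibroblast, 2 macrophage and 0 T cell markers were lower, where 5.02% of all genes were. FABP4 then had a difference of -0.66 (adjusted p = 0.128). Of these lists no defining marker was at 0, which RMA values do not reach. No neutrophil marker of the list had a kept probe set under its symbol. A marker without a kept probe set may be missing from the annotation or lie below the filter. The part of these shifts in the members' differences was not tested.

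The hybridization controls, spiked in at fixed amounts, served as a technical measure of each array. Their mean was 10.20 to 10.43 on neighboring and 10.42 to 10.84 on healthy arrays among the 8 in the test, a difference of -0.37 (exact two-sided permutation test, p = 0.0571, where 0.0286 is the smallest p possible). On all 10 arrays the difference was -0.29 (exact two-sided permutation test, p = 0.0397). With this mean as a covariate, 0 of 77 member genes passed (1.05% of all kept probe sets were higher). In limma with the covariate, 27 member probe sets (29.0%) had an unadjusted p under 0.05, all of them higher. At that p, 11.7% of all kept probe sets were higher and 8.13% lower. All 29 genes stayed above 0, on the same 8 arrays that chose them. The members' median was 0.39 in that fit, and the median standard error of a member was 0.23, against 0.14 without the covariate. The group and this signal can be told apart only in part on 8 arrays.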

How the data were processed

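The deposited file held log2 expression values of 24128 probe sets on 10 Affymetrix bovine arrays, which the authors had made with RMA (background correction, quantile normalization and probe summary over arrays). After 112 array control probe sets were set aside, 24016 remained. Gene symbols came from the platform annotation and matched current RefSeq symbols for all 101 members. Groups were taken from the sample titles, because the source field of the healthy samples repeats that of the neighboring ones. No array pair held identical values. Arrays give no read depth, so precision rests on how many were run.

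Tests used limma 3.58.1 in R 4.3.3 (lmFit, eBayes) on 4 neighboring and 4 healthy arrays, with Benjamini-Hochberg adjustment over 14409 probe sets, after the 40% with the lowest mean were left out. The study's present calls were not used here. The fit was tested on simulated data with known changes. Single values were compared with exact two-sided permutation tests. The brightest kept probe set stood for a gene.

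Named genes were the 10 with the largest positive and, likewise, the largest negative differences among those past the threshold with groups that did not overlap, and every factor. Other genes past the test were named as examples after their values were seen. Members, lists and markers were chosen with earlier results of these data known, and their roles were assigned from background knowledge. The spread between cows includes animal, tissue and technical differences.

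Alternatives covered the arrays entered, filter, scaling, variance model, array weights, the hybridization signal as a covariate, the probe set that represents a gene and each array left out. Same-numbered cows of both groups did not deviate together (correlations -0.19, 0.07, -0.17, 0.02 and 0.17), so no block was used.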

Additional observations from a re-analysis of the deposited data

Results flagged for a closer look

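In groups of 5 arrays, a highest or lowest array was singled out when its gap to the next covered more than 0.71 of the group's range. Of 52 groups checked 6 met this, where chance gives about 1 in 20. Healthy 3 was the low array for MRPL42 (6.64, with the next at 7.87), for MRPL46 (5.50, next 6.00), for the median of the large subunit (-0.46, next -0.07), for that of cytosolic ribosomal proteins (-1.01, next -0.16) and for that of the respiratory chain and ATP synthase (-1.16, next -0.11). In the last family neighboring 1 was also the low array of its group (-0.46, next -0.06). Healthy 3 was not in the main test, and neighboring 1 was.

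Probe sets below the filter were not part of the main comparison, and 4 of the 8 member probe sets there passed when no filter was used. They were those of MTRF1 (0.69 and 0.52), of MRPS28 (-0.70) and of MRPL30 (0.43). The MRPL30 probe set was at 1.89 to 2.20 in neighboring glands, against 1.40 to 1.82 in healthy glands, near the bottom of the range of all values. The brighter MRPL30 probe set differed by 0.08 ± 0.15 (adjusted p = 0.716).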

How the results depend on the processing

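The median difference of the members was 0.20 to 0.39 under all alternatives, and neither MRPS28 nor any of the 29 genes that were higher changed its direction. Those genes were chosen by their difference on arrays that the alternatives largely share, so a kept direction is no separate support. In all, 21 of the 77 genes, all among those that did not pass, changed sign in at least 1 alternative. Counts moved more. Instead of 33 probe sets and 29 genes, 11 and 9 were higher with all 10 arrays, 7 and 5 with neighboring 5 put back, and 0 and 0 with the hybridization signal as a covariate. Leaving out 1 array gave 17 to 53 probe sets and 13 to 45 genes. The count of lower probe sets and genes was 0 with all 10 arrays, with either outlier put back, with array weights and with the covariate, and 0 to 1 when an array was left out. It was 2 probe sets with no filter and with only the lowest 20% left out. The study's threshold was passed by 0 to 2 probe sets when an array was left out, the 2 being both of MRPL39 without neighboring 1, and by 11 when it was eased to an adjusted p under 0.05 and 1.5-fold. With the replicate number as a block, on the 3 numbers both groups shared in the test, 4 probe sets and 3 genes were higher, against 9 and 8 on the same arrays without the block. The block on all 10 arrays, added after seeing the data as was that fit without the block, left 6 and 4 higher and 0 lower. Healthy 3 put back, other filters, scalings, variance models, array weights and other ways to represent a gene gave 23 to 36 genes higher. For most of these fits no share of all genes is given. Their counts do not show whether members held up better or worse than other genes. Of the 14 named genes that passed, 7 passed with all 10 arrays, 5 with neighboring 5 put back, 4 with the replicate block (6 on the same arrays without it), 10 to 13 with 1 array left out and 0 with the covariate.

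With 4 cows per group, small differences such as 0.28 for MRPS9 stood near the limit of the test, and values that did not pass are not shown to be equal. The array to array differences of ribosomal and respiratory genes, the hybridization signal and the markers of other cell types moved with the groups or within them, and their part in the members' differences was not tested. Probe sets below 5.71 were compared only without the filter.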
